A study of Homo sapiens with 4 samples.

Results

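The miR-379 to miR-410 cluster is the larger of the miRNA clusters in the imprinted DLK1-DIO3 domain at 14q32. Its assays were found by name on the PCR plates, by 37 miRNA numbers with any arm suffix, and 44 of the 737 different miRNA assays matched. The names miR-453, miR-655 and miR-656 matched no well analysed here. All samples are total RNA of U2OS, a human osteosarcoma cell line, and mature miRNAs were quantified by SYBR Green PCR on a set of plates called panel I and panel II. The shNS sample came from cells infected with a control short hairpin RNA lentivirus, and the shDDX1 sample from cells infected with one against DDX1, a DEAD-box RNA helicase. Both were selected with puromycin at 2 ug/ml. The untreated sample and the NCS sample came from U2OS cells without and with neocarzinostatin, a DNA-cutting enediyne, at 500 ng/ml for 6 h. Each of the 4 groups is 1 sample, so no p-value or standard error is given, and every difference below describes these samples only. The first pair asks which members depend on DDX1, which the study links to the processing of primary miRNAs, and the second how they stand after DNA breaks. The amount of DDX1 left after knockdown was not analysed here.

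The cluster is transcribed from the maternal chromosome as long noncoding RNA, from which Drosha cuts each hairpin before Dicer releases its arms. A hairpin yields a 5p arm and a 3p arm, and the less abundant one carried a star in older names. Members are abundant in brain, placenta and embryo. In neurons miR-134 restrains the growth of dendritic spines, and in bone tumours loss of 14q32 miRNAs has been reported.

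The 44 assays come from 37 hairpin genes on the plus strand of chromosome 14, and from MIR379 to MIR410 the stretch covers chr14:101022066-101065991 in RefSeq's GRCh38.p14, or 43.9 kb. Mature sequences were matched for 43 of the 44, all but miR-668. The 9 members below had the lowest ratios of shDDX1 to shNS with a mature sequence at hand and are shown for that reason, 5′ to 3′, with the seed, bases 2 to 8, in capitals.
miR-329: aACACACCugguuaaccucuuu
miR-369-5p: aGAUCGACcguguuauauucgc
miR-409-3p: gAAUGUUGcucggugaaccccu
miR-376b: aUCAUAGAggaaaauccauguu
miR-154*: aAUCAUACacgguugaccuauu
miR-323-3p: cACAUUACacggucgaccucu
miR-654-5p: uGGUGGGCcgcagaacaugugc
miR-381: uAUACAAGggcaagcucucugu
miR-299-5p: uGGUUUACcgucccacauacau
The 38 seeds are mostly private to 1 member, and 5 are shared by a pair. The partners of the lowest members in these pairs are shown next, since a shared seed is what sets most targets of a miRNA, and the pair of miR-379* and miR-411* follows.
miR-376a: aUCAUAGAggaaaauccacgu
miR-487a: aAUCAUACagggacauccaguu
miR-541: uGGUGGGCacagaaucuggacu
miR-300: uAUACAAGggcagacucucucu
miR-379*: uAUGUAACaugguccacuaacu
miR-411*: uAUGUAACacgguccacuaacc
Counted from the 5′ end, miR-376a and miR-376b have the same base at 20 of 21 positions, miR-379* and miR-411* at 20 of 22, miR-300 and miR-381 at 19 of 22, miR-154* and miR-487a at 15 of 22, and miR-654-5p and miR-541 at 11 of 22. Sources used here do not say how well the assays separate such near copies. Outside the cluster, miR-362-3p carries the seed of miR-329.

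A quantification cycle (Ct) is later where there is less RNA, and 1 cycle was taken as 1 doubling. In each sample Ct was centred on the mean of the 499 miRNA wells that read under Ct 35 in all samples, which was 25.8 for shNS and 26.1 for shDDX1, and 30.1 and 29.4 for the untreated and NCS samples. A log2 ratio is the difference of centred Ct within a pair, an assay was quantified where both samples read under Ct 35, and lower or higher means at least 2-fold. Assays repeated on both panels gave an SD of 0.38 for a log2 ratio in the shRNA pair and 0.79 in the NCS pair, from 7 assays each. The panels stood apart: the median ratio of all quantified wells for shDDX1 was -0.42 on panel I but 0.46 on the other panel, and for NCS 0.30 and -0.84, so members are set beside the wells of their own panel. All 10 mesenchymal marker miRNAs, such as miR-21 and miR-31, read under Ct 35 in all samples, with a median centred level of 3.22 to 3.52 above the mean well, while the 4 muscle markers had medians below it in each sample, from -6.13 to -2.71. Of these 4, only 1 read under Ct 35 in untreated cells and 3 did in NCS-treated cells. Water wells gave a Ct in the shRNA pair and none in the NCS pair. On panel I, 1 of 2 water wells read 27.8 in shNS and 27.3 in shDDX1, and 16 of the 24 members there read later than it in shNS and 23 in shDDX1. On panel II the earliest of 7 read 26.6 and 26.5, before 19 of the 20 members. The part of such background in the ratios was not tested.

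In shNS all 44 members read under Ct 35, with a median Ct of 28.7, and in shDDX1 43 did, with a median of 30.4. In untreated cells 22 did and in NCS-treated cells 35, beside 70.4% and 79.9% of all miRNA wells. Most members lay below the average well. Their median centred level was -2.83 in shNS and -4.30 in shDDX1, and among those under the limit -2.29 in untreated and -3.20 in NCS-treated cells. The 6 earliest members in shNS were miR-329 at Ct 21.8, miR-495 at 25.9, miR-411* at 26.4, miR-376c at 26.5, miR-376a at 26.6 and miR-485-3p at 26.7.

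Many members of the cluster were lower in shDDX1 than in shNS cells. Of 43 quantified members 21, or 48.8%, were lower and 2 higher, while over all 716 quantified miRNAs 17.3% were lower and 11.0% higher. The median member ratio was -0.85, and that of all wells 0.04. Of the 24 members on panel I 18, or 75.0%, were lower and 0 higher, beside 29.0% lower and 2.73% higher of all miRNAs on that panel, and their median was -2.04. Of the 19 on panel II 3, or 15.8%, were lower and 2 higher, beside 5.10% and 19.8%, with a median of 0.02. Middle columns of panel I, 7 to 18, read lower as a whole, and there 12 of 15 members were lower beside 41.1% of all. In the outer columns 6 of 9 were lower beside 16.6%. With the median of neighbouring wells subtracted, 17 of 24 on panel I and 7 of 19 on panel II were lower, beside 15% and 10.5% of all. When each panel was centred on its own wells, 17 of 24 and 5 of 19 were lower, beside 19.4% and 11.6%, and none of the members was higher, beside 7.82% of all. The 6 epithelial marker miRNAs, among them miR-200c and miR-141, also had later readings, with a median centred level of -1.84 in shNS and -3.60 in shDDX1, and all 6 read under Ct 35 in every sample. The liver miRNA miR-122 had -2.73 and -3.94. Other marker lists moved less between shNS and shDDX1. Blood markers went from -0.714 to -0.996 and muscle markers from -2.71 to -3.19. Mesenchymal markers stood at 3.36 and 3.39, and neural ones at 0.345 and 0.374. The part of these marker miRNAs in the members' ratios was not tested. In these bulk samples fewer cells with a miRNA and less of it per cell cannot be told apart.

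**Figure D1:**
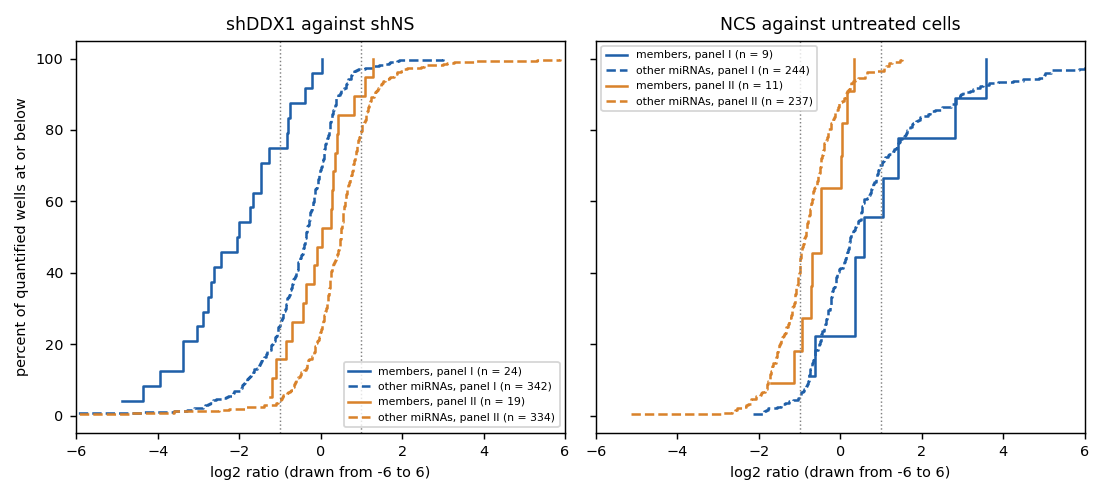
Cumulative percent of quantified wells (vertical axis) by log2 ratio (horizontal axis) for members (solid) and other miRNAs (dashed) on panel I (blue) and panel II (orange), with shDDX1 against shNS on the left and NCS against untreated cells on the right; dotted lines mark 2-fold. On the left the 24 panel I members lie to the left of the other wells of their panel, with 75.0% below the lower 2-fold line, and on the right the 9 quantified members of panel I overlap them.

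The lowest member was miR-329, made from a pair of hairpin genes, MIR329-1 and MIR329-2. It read Ct 21.8 in shNS and 27.0 in shDDX1, and 37.3 and 30.3 in the untreated and NCS samples. It was the only one of the 24 panel I members to read before the water well of its plate in both shRNA samples. Its ratio was -4.87, or 29.2-fold lower. The controls disagreed for it, since its centred level was 4.02 in shNS and -7.15 in untreated cells, while shDDX1 and NCS-treated cells were close, at -0.84 and -0.96. miR-369-5p, from the far end of the cluster, read 29.8 and 34.5 in the shRNA pair, was undetermined in untreated cells and read just under Ct 35 after NCS. Its ratio of -4.35 rests on a shDDX1 reading near the limit.

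miR-409-3p read Ct 27.6 in shNS and 31.8 in shDDX1, a ratio of -3.94, and 31.8 and 29.6 in the NCS pair. Its raw reading was earliest in shNS and next in NCS-treated cells. Its centred levels of -1.77 in shNS and -1.68 in untreated cells lay together. That of NCS-treated cells was higher, at -0.25, and that of shDDX1 lowest, at -5.71. The miR-376 group, whose precursors are known substrates of A-to-I editing, was lower in all of its 4 assays. miR-376b went from Ct 26.7 to 30.4, a ratio of -3.39, and miR-376a from 26.6 to 29.3, a ratio of -2.44. miR-376c, which has another seed and is known to target the activin receptor ALK7, went from 26.5 to 28.4, a ratio of -1.67. These 3 sit on panel I, and the fourth assay, miR-376a* on panel II, had a ratio of -1.20.

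miR-154* read Ct 28.1 in shNS and 31.8 in shDDX1, a ratio of -3.38. miR-323-3p read 28.0 and 31.4, a ratio of -3.04, and miR-654-5p 28.3 and 31.5, a ratio of -2.89. The next were miR-381, at 27.9 and 31.0 with a ratio of -2.77, and miR-299-5p, known to target the bone matrix protein osteopontin, at 28.7 and 31.7 with a ratio of -2.70. All of these wells read before Ct 29 in shNS and after 30 in shDDX1. miR-134 read 26.9 and 29.2, a ratio of -2.01, which was -0.90 with neighbouring wells subtracted. miR-495 read 25.9 and 27.7, a ratio of -1.46. The other lower members on panel I, miR-487b, miR-668, miR-410, miR-539 and miR-382, had ratios between -2.63 and -1.27.

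**Figure D2:**
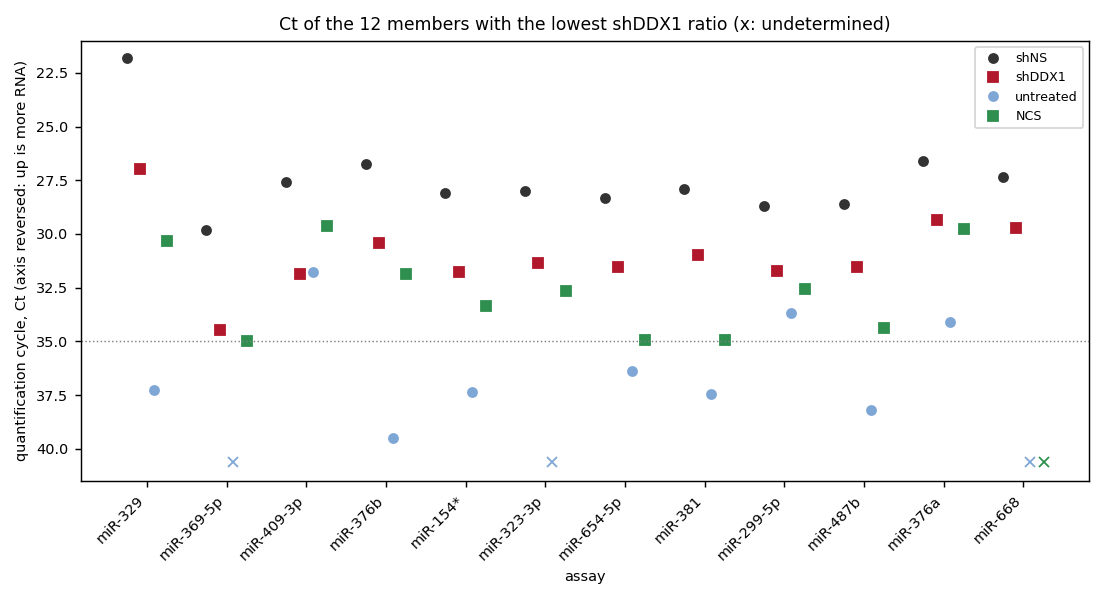
Ct (vertical axis, reversed so that more RNA is higher) in the 4 samples for the 12 members with the lowest ratio of shDDX1 to shNS; the dotted line is Ct 35 and crosses at the bottom mark undetermined wells. For each of the 12 the shDDX1 reading (red) lies below the shNS reading (black), from 21.8 against 27.0 for miR-329 to 27.4 against 29.7 for miR-668, and 9 of the 12 read after Ct 35 or were undetermined in untreated cells (light blue).

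Not every member was low. On panel I, miR-379, the first hairpin of the cluster, read Ct 30.9 and 31.2, a ratio of 0.03, and miR-299-3p and miR-154 had ratios of -0.21 and -0.38, and these 3 changed sign between scalings. miR-411 was within 2-fold at -0.79, as were miR-377, known for raising fibronectin in kidney cells, at -0.83 and miR-494 at -0.74. On panel II, miR-412 and miR-541 were higher, at 1.28 and 1.09, but with each panel centred on its own wells they were at 0.85 and 0.65, within 2-fold. miR-544 at 0.81 and miR-380 at 0.43 came next. miR-487a, miR-376a* and miR-409-5p were the lower ones there, at -1.24, -1.20 and -1.09. miR-411*, miR-543, miR-485-3p, miR-758 and miR-300 read between Ct 26.4 and 27.5 in both samples and had ratios from 0.02 to 0.39, and each changed sign between scalings. Nearest the threshold, miR-409-5p at -1.09 was counted as lower and miR-654-3p at -0.85 was not. miR-380* read 34.9 in shNS and 35.1 in shDDX1 and was not quantified.

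The Ct values were scaled in 8 ways: centred on the mean or the median of the wells, on small RNAs or not at all, by panel, on calibrator wells, on neighbouring wells, or as in the authors' deposited normalized table. In all 8, 19 of 43 members were lower, or 44.2%, beside 9.08% of all quantified miRNAs. These were miR-329, miR-369-5p, miR-409-3p, miR-376b, miR-154*, miR-323-3p, miR-654-5p, miR-381, miR-299-5p, miR-487b, miR-376a, miR-668, miR-410, miR-376c, miR-539 and miR-495 on panel I and miR-487a, miR-376a* and miR-409-5p on panel II. No member was higher in all 8. The 8 scalings are not independent checks. In the shRNA pair the authors' table and no centring gave the same member ratios, such as -5.17 for miR-329. Centring on the mean, the median or small RNAs, or not at all, shifts the ratios of all wells by the same amount.

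**Figure D3:**
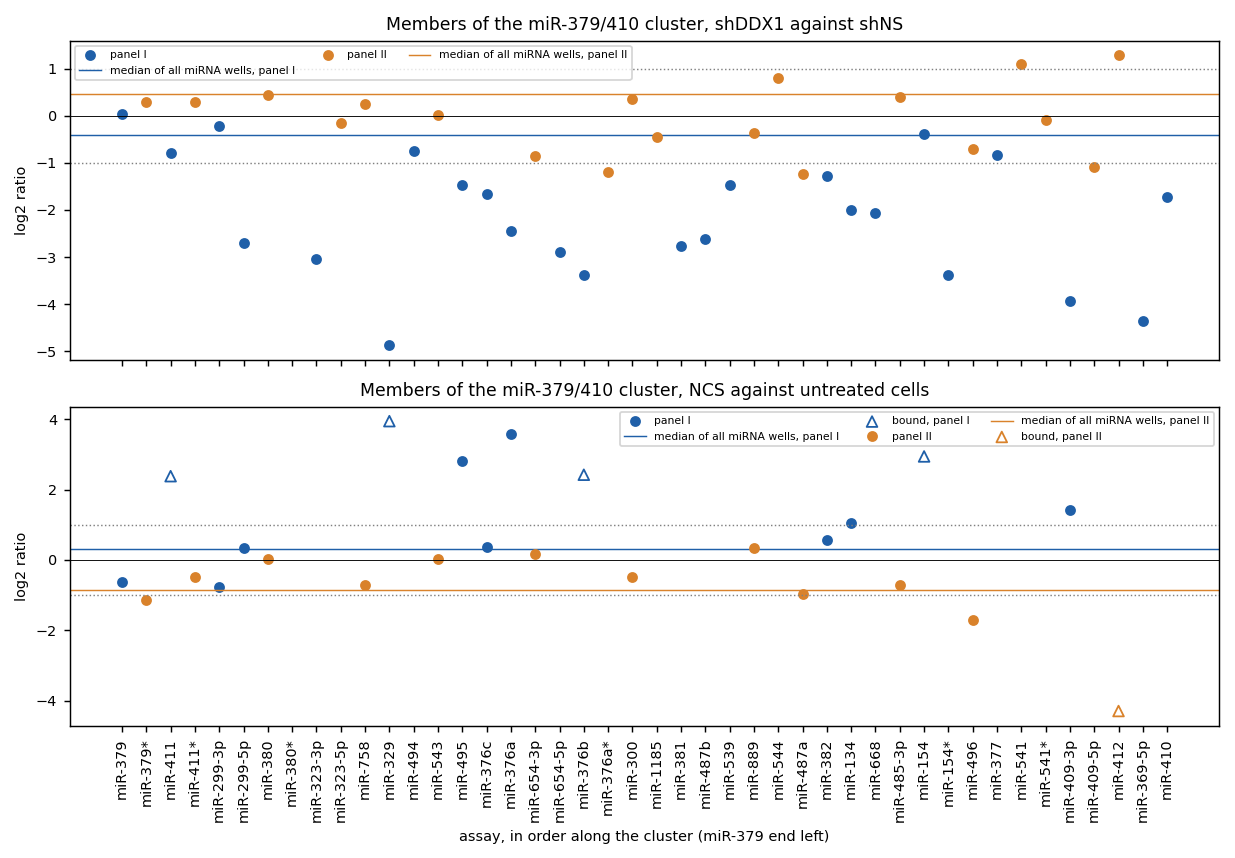
Log2 ratio (vertical axis) of each member, in order along the cluster from miR-379 to miR-410 (horizontal axis), for shDDX1 against shNS (top) and NCS against untreated cells (bottom); blue and orange points are panel I and panel II assays, coloured lines the median of all miRNA wells of the panel, open triangles bounds for members under the Ct limit in 1 sample, and dotted lines 2-fold. In the top plot the 24 blue points run from 0.03 at miR-379 to -4.87 at miR-329, and in the bottom plot miR-376a at 3.59 and miR-495 at 2.81 are the highest measured ratios.

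Along the cluster, low ratios were found from the third hairpin, MIR299, to MIR410 at the end. In 3 stretches, set after the values were seen, 3 of 7 panel I members were lower from miR-379 to miR-543, with a median of -0.79, 8 of 8 from miR-495 to miR-544, with a median of -2.53, and 7 of 9 from miR-487a to miR-410, with a median of -2.01, beside 29.0% of all miRNAs on panel I. On panel II 0 of 6, 1 of 6 and 2 of 7 were lower, beside 5.10% of all there. The middle stretch holds MIR381HG, a noncoding gene that contains the hairpins of 5 members. Of these miR-381, miR-487b and miR-539 on panel I were at -2.77, -2.63 and -1.48, and miR-889 and miR-544 on panel II at -0.37 and 0.81. Order along the cluster and ratio had a Spearman correlation of -0.26 over the 24 panel I members, which share a plate, and 0.00 over the 19 on panel II. For the A and U content of the mature sequence the correlations were -0.06 over 23 and -0.19 over 19. For the Ct in shNS, which is itself part of the ratio, they were 0.46 over 24 and 0.11 over 19. On panel I, members that read earlier in shNS thus tended to have lower ratios. With 15 assays of 3p arms and 9 of 5p arms on panel I, 12 and 6 were lower, with medians of -2.44 and -1.48, again beside 29.0% of all miRNAs on that panel. On panel II the order was the other way. There 1 of 10 quantified 3p arms and 2 of 5 5p arms were lower, with medians of 0.29 and -0.44, beside 5.10% of all. Of the 3p arms 2 were higher and of the 5p arms 0, beside 19.8%.

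Since both arms of a hairpin come from 1 cut precursor, the arms were set side by side. Of 10 hairpins with both arms assayed 9 had both quantified in the shRNA pair, and the arms of a hairpin often differed. In 2 both arms were lower and in 4 only 1 was, and the matching shares of other hairpins are not given here. The gap between the arms was 0.26 to 3.0 with a median of 2.03. It exceeded 1.09, which is 2 SD of a difference between ratios of the repeated assays, in 7 of the 9. Only 3 of those 7 repeated assays are miRNAs, and the spread of the members' own wells was not measured. Among 169 other hairpins with both arms quantified the median gap was 0.89 and 42.0% exceeded that limit. With each panel centred on its own wells 6 of the 9 exceeded it, beside 34.3% of the others, and with neighbouring wells subtracted 5, beside 26.0%. The hairpins of the 5 widest gaps are shown with the 5p arm, then the 3p arm, in capitals, all on the plus strand in GRCh38.p14.
MIR154, chr14:101059755-101059838: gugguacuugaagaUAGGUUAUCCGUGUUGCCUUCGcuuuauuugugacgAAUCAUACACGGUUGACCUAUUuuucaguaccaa
MIR323A, chr14:101025732-101025817: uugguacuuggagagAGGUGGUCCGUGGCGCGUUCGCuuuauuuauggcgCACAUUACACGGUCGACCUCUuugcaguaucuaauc
MIR409, chr14:101065300-101065378: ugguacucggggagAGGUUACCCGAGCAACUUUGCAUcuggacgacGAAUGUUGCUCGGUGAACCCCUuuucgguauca
MIR299, chr14:101023794-101023856: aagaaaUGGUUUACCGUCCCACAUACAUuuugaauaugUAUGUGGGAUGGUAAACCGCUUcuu
MIR654, chr14:101040219-101040299: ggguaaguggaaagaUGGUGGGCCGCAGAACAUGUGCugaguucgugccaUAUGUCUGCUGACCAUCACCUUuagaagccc
In MIR154 the 5p arm, miR-154, had a ratio of -0.38 and the 3p arm, miR-154*, one of -3.38, and both assays are on panel I. In MIR299, also with both arms on panel I, the 5p arm was the lower one, at -2.70 beside -0.21. In MIR323A the 3p arm was at -3.04 and the 5p arm at -0.16, and in MIR409 at -3.94 and -1.09. In MIR654 the 5p arm was at -2.89 and the 3p arm at -0.85. In these last 3 hairpins the lower arm is the panel I assay, so panel and arm cannot be told apart there. With neighbouring wells subtracted the gap of MIR654 was 0.33, while that of MIR154 was 3.50, of MIR299 2.40, of MIR409 2.74 and of MIR323A 1.83. In MIR541, with both arms on panel II, the arms were at -0.08 and 1.09.

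**Figure D4:**
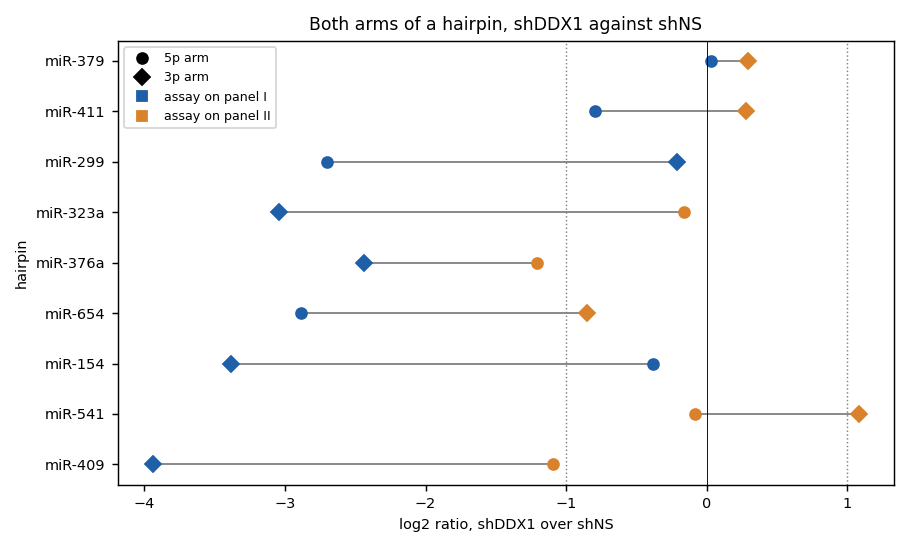
Log2 ratio of shDDX1 to shNS (horizontal axis) for the 5p arm (circle) and 3p arm (diamond) of each of the 9 hairpins with both arms quantified (vertical axis), in order along the cluster; blue is an assay on panel I, orange on panel II, and dotted lines mark 2-fold. The lines are longest for miR-154, from -0.38 to -3.38, and shortest for miR-379, from 0.03 to 0.29.

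Members that share a seed did not always stand together either. miR-376a and miR-376b, both on panel I, were at -2.44 and -3.39, and miR-379* and miR-411*, both on panel II, at 0.29 and 0.28. Where the pair was split between the panels the panel I member was lower: miR-381 at -2.77 beside miR-300 at 0.36, miR-154* at -3.38 beside miR-487a at -1.24, and miR-654-5p at -2.89 beside miR-541 at 1.09. With each panel centred on its own wells miR-300 was at -0.07 and miR-381 at -2.35, and miR-541 at 0.65 and miR-654-5p at -2.46.

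Other large clusters were described the same way. The miR-127 to miR-433 cluster is the upstream neighbour in the same imprinted domain. In shDDX1 4 of its 15 quantified assays were lower and 3 higher, beside 17.3% and 11.0% of all miRNAs, with a median of -0.37. On panel I 3 of 11 were lower, beside 29.0% of all there, and 0 of 11 with each panel centred, beside 19.4%. Its lowest assay was miR-431 at -1.06 and its highest miR-431* at 2.61. The primate-specific placental cluster on chromosome 19 had 8 of 48 lower and 5 higher, or 16.7% and 10.4%, near the shares of all miRNAs. Its median was 0.15. Of its 22 panel I assays 8, or 36.4%, were lower, beside 29.0% of all there. In this cluster miR-516b was lowest at -3.11 and miR-515-3p highest at 1.5. After NCS the ends were miR-493 at -0.52 and miR-665 at 0.71 in the upstream cluster, and miR-525-3p at -2.93 and miR-517a at 1.46 in that on chromosome 19.

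After NCS the members that could be measured lay on both sides, led by miR-376a and miR-495 among the higher ones. Of 20 quantified members 4 were higher and 2 lower, or 20.0% and 10.0%, beside 16.9% and 22.3% of all quantified miRNAs. Without centring, which moves the median of all wells by 0.73, 8 were higher and 0 lower, beside 28.9% and 5.82% of all. The median member ratio was 0.03 and that of all wells -0.39. On panel I 4 of 9 were higher and 0 lower, beside 30.4% and 4.74% of all there. On panel II 0 of 11 were higher and 2 lower, beside 3.23% and 39.9%. When each panel was centred on its own wells 3 of the 20 were higher and 2 lower, beside 13.7% and 20.5%. With neighbouring wells subtracted 6 were higher and 2 lower, beside 16.7% and 12.7%. These shares leave out 24 members that did not read under Ct 35 in both samples.

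The highest was miR-376a, at Ct 34.1 in untreated and 29.8 in NCS-treated cells, a ratio of 3.59 or 12-fold. miR-495 read 34.3 and 30.7, a ratio of 2.81 or 7.03-fold. Both were higher in all 8 scalings, so 2 of 20 members were, or 10.0%, beside 9.44% of all quantified miRNAs. Both had read late in untreated cells. miR-409-3p, at 31.8 and 29.6, had a ratio of 1.42, and miR-134, at 31.7 and 29.9, one of 1.05. When each panel was centred these were at 0.62 and 0.24, and with neighbouring wells subtracted at 2.18 and 0.01. miR-376c, of the same group as miR-376a, read 32 and 30.9, a ratio of 0.36. The lower ones were miR-496, at 32.2 and 33.2 with a ratio of -1.70, and miR-379*, at 32.3 and 32.7 with a ratio of -1.13. With each panel centred they were at -0.87 and -0.30. Among members within 2-fold, miR-382 was at 0.58 on the higher side. On the lower side were miR-487a at -0.95, miR-299-3p at -0.78, miR-485-3p at -0.71, miR-758 at -0.70, miR-379 at -0.62 and miR-300 at -0.48.

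More members came under the limit than left it. Of the 44, 15 read under Ct 35 after NCS and not before, and 2 only before, beside 90 and 20 of all 740 miRNA wells. The 15 were 12 of 24 on panel I, or 50.0%, beside 17.1% of all wells there, and on panel II 3 of 20, or 15%, beside 7.12%. Only wells not under Ct 35 in untreated cells can come under it, and members read late there, so these shares partly follow their low level. On panel I 2 members read under the limit in neither sample, while of all wells 64 came under it and 55 stayed late. On panel II 5 members stayed late, while of all wells 26 came under it and 74 stayed late. For 4 of the 15 members the NCS reading was under Ct 32, which gives a bound with 35 in place of the untreated reading. miR-329 went from 37.3 to 30.3 and was at least 15.4-fold higher, and miR-154 from 35.8 to 31.3, at least 7.67-fold. miR-376b went from 39.5 to 31.8, at least 5.35-fold higher, and miR-411 from 35.6 to 31.9, at least 5.20-fold. With each panel centred the bounds were 8.80-fold, 4.40-fold, 3.07-fold and 2.98-fold. In the other direction miR-412 went from 31.4 to 37.4, at least 19.5-fold lower, or 11.0-fold with each panel centred, and miR-377 from 34.8 to 38.0. The wells of miR-329, miR-376b, miR-154 and miR-411 lie in columns 7 to 18 of panel I, and there the median ratio of all quantified wells was 1.21, against -0.16 in the outer columns. The epithelial markers had a median centred level of -3.74 before and -1.92 after NCS, and the muscle markers one of -6.13 and -4.24. Only 1 of the 4 muscle markers read under Ct 35 before NCS and 3 did after, so their first median rests on readings past the limit. Blood markers fell, from -2.12 to -3.15, as did the liver miRNA miR-122, from -2.70 to -4.06. Neural markers went from 1.44 to 1.19 and mesenchymal ones from 3.52 to 3.22. The part of position and of other cell types' miRNAs in these bounds was not tested.

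The pairs share no sample, so the members' values can be set side by side. Of the 20 members quantified in both pairs miR-495, miR-376a, miR-134 and miR-409-3p were lower in shDDX1 and higher after NCS, or 20.0%, beside 6.65% of all miRNAs quantified in both, and 0 were the other way round, beside 4.23%. All 4 are on panel I, where they were 4 of 9 members, beside 12.6% of all wells there. With each panel centred, miR-134 and miR-409-3p were within 2-fold after NCS, at 0.24 and 0.62. Only miR-495 and miR-376a were higher after NCS in all 8 scalings. The matching shares of all miRNAs under other scalings are not given here. Over the 20 the ratios had a Spearman correlation of -0.68, over the 9 on panel I -0.53 and over the 11 on panel II -0.04, as a description of points that share plates. In untreated cells the 9 panel I members had a median centred level of -3.56 and in shNS one of -1.77, although both are controls. In shDDX1 they had -3.33 and in NCS-treated cells -1.49. All 253 wells of panel I under Ct 35 in every sample had the same order of medians, 0.55 in untreated cells, 0.69 in shDDX1, 1.22 in shNS and 1.41 after NCS. The 11 members on panel II had -1.68 in shNS and -2.20 in untreated cells. All 246 such wells of panel II had medians of -1.62 and -1.12. For members, shNS was above untreated cells for 2 of these 11 but for 7 of the 9 on panel I. The panels as a whole differed the same way, with 70 of 246 wells on panel II and 144 of 253 on panel I.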

How the data were processed

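The cluster's members, the other miRNA lists, the alternatives and the middle columns 7 to 18 were chosen with earlier results of these data known. Per the labels, total RNA of U2OS cells was isolated with Trizol and copied to cDNA with reagents from Exiqon, and PCR was read with SYBR Green. The authors deposited Ct per well for 768 wells of 4 samples, 384 on each panel. For instrument, threshold and baseline the sources used here give nothing. The authors' deposited normalized table holds shifted Ct and was used as an alternative. The deposited fold table was not used.

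Ct was centred as the report describes, with 740 miRNA wells, and the 3 miRNAs on both panels were averaged for counts over all miRNAs. There is 1 sample per group and no test. A bound needs Ct under 32 in 1 sample and not under 35 in the other. Older names without an arm were paired with current arms by miRBase's renaming, which the deposited files do not hold. Sequences are RefSeq's, GRCh38.p14, and order is that of the RefSeq gene table. Named were, per comparison, the 8 lowest and 5 highest ratios, all bounds, the 6 earliest members in shNS, other arms of these, members next to 2-fold and the ends of the other lists. Seed pairs, members lower in every scaling and the other within-2-fold members were named after their values were seen. The calculation of ratios, in Python 3.11.15 with pandas 2.3.3, was tested on simulated data. These held offsets of samples and panels but no differences between plate columns, and the bounds were not part of that test.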

Additional observations from a re-analysis of the deposited data

How the results depend on the processing

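With 1 sample per group no alternative stands in for replicates, and Ct 35 leaves most NCS ratios unmeasured. No paired analysis was possible because no group holds more than 1 sample. The 21 members lower in shDDX1 were 19 to 29 under every reference level and Ct limit tried and 26 at 1.5-fold, and 13 at 4-fold. The 19 were of 39 quantified under Ct 32. Without centring 26 of 43 were lower, beside 24.6% of all miRNAs. The median of -0.85 stayed between -1.16 and -0.84, apart from -1.52 against small RNAs, which shift all wells by -0.67. The 2 higher in shDDX1 became 1 with median centring, neighbouring wells subtracted or a Ct limit of 32, and 0 with small RNAs, no centring, each panel centred, plates set to calibrators, the authors' table or 4-fold. The 4 of 20 higher after NCS became 2 at 4-fold, 2 of 7 under Ct 32 and 7 of 26 under Ct 37. They became 8 with small RNAs or no centring, and 9 in the authors' table. Without centring the share of all miRNAs rose too, from 16.9% to 28.9%. The 2 lower after NCS became 7 at 1.5-fold and 0 at 4-fold, under Ct 32, with small RNAs, no centring, calibrators or the authors' table. Small RNAs shift all NCS ratios by 0.79, and the authors' table shifts their median by 0.85. For other folds, other Ct limits, small RNAs, calibrators, median centring and the authors' table, the share of all miRNAs is not given here. Counts under those settings therefore describe members only. miR-379* after NCS was at 0.69 in the authors' table. The cause was not tested, beyond these shifts and the fewer assays under Ct 32. Of 364 values of named members under another scaling 232 moved by less than the technical SD and the others by more. In all 64 changed sign, and 1 of these was a 2-fold call, that of miR-379*.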

Other observations

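The hairpin that RefSeq now calls MIR323B carries mir-453 among its older names, and a panel II well is named miR-323b-5p. It was not counted as a member. It read Ct 32.4 in shNS and 30.9 in shDDX1, and 35.3 and 35.5 in the NCS pair, with a ratio of 1.79 for shDDX1, above the highest member, miR-412 at 1.28.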
